A study of Mus musculus with 77 samples.

Results

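Mouse bone-marrow-derived macrophages of the strain C57BL/6J (B6) kept in hyperoxia held 2997 p53 binding regions that lay away from gene starts and had no counterpart in room air. They were selected on the peak calls themselves: a hyperoxia peak that shared no base with any peak of the B6 room-air list, with its midpoint more than 1 kb from every listed start site. The 2997 regions made up most of the 3500 peaks of the hyperoxia list. Of the others, 298 overlapped a room-air peak and 205 were hyperoxia-only peaks at promoters. All 10 peak lists of the series together held 11305 peaks.

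The series profiled mouse lungs and macrophages to ask how Trem2, a receptor gene of myeloid cells, and p53 take part in the response to high oxygen. Macrophages grown from bone marrow were B6, Trem2 knock out (KO) or DBA/2J (DBA), and each was kept in room air or hyperoxia for 24 h. The column names of the expression table give 95% oxygen, and the sample labels give the time only. The lung peak lists come from whole lungs of newborn mice raised in room air or in 75% oxygen until postnatal day 14. B6 and KO macrophages have p53 ChIP-seq lists, each pooled from 2 ChIP samples, and macrophages of all 3 genotypes have RNA-seq with 2 libraries a group. The KO ChIP samples are named as KO in their titles but carry C57BL/6J as genotype label, and per the file headers their peaks were called against B6 inputs. A p53 list of DBA macrophages was not analysed here. The labels give the KO as a Trem2 knockout mouse strain and do not describe the allele. Nothing in the labels says that the 2 samples of a group were separate cultures or mice. The p-values below therefore measure only the spread between these samples, which may be technical.

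The p53 protein, a DNA-binding transcription factor encoded by Trp53, is kept scarce by the ubiquitin ligase Mdm2 and accumulates after DNA damage or oxidative stress. It binds DNA as a tetramer at response elements made of a pair of decamers, and many of these elements lie in enhancers far from the genes they act on. Its best known targets halt the cell cycle, repair DNA, limit oxidative damage, start cell death or feed back on p53 itself.

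To show what DNA lies under such regions, sequence was read for those that reach one of the RefSeq promoter windows (GRCm38.p6, from 250 bases before to 50 bases after a gene start, 32851 windows). Of the 2997 regions, 23 reached a window, all at starts that the expression table does not list. The p53 decamer was searched on both strands, and a pair of decamers with a spacer of up to 13 bases was counted as a complete element. A decamer occurred in 4 of the 23 regions (17.4%), against 3.35% of all windows cut to the same slices, and a complete element in 1 (4.35%), against 0.0244%. Room-air-only distal regions held a decamer in 1 of 23 (4.35%) and peaks shared between room air and hyperoxia in 10 of 23 (43.5%, against 4.15% of their slices). The AP-1 motif TGANTCA occurred in 2 of the 23 (8.70%, against 3.31% of slices) and the PU.1 motif GGAAGT in 2 (8.70%, against 11.1%), each searched on both strands, and overlaps of these motifs with the decamer were not scored. These matches describe the letters in a small and unusual subset of the regions, and say nothing of the regions for which no sequence was read.

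The following 4 stretches are shown because they hold decamers, in capitals: 3 of the 4 hyperoxia-only distal regions with one, and the shared peak upstream of Cdkn1a for comparison. Decamers were matched without mismatches. They are printed 5′ to 3′ on the strand of the RefSeq gene, from GRCm38.p6, and cover the part of each peak that lies in the window before the start. The decamer of the other region, at Prkar1a (score 31), is not whole in that part, and its stretch is not shown. The region at Gm40491 (chr12:86833764-86833925, minus strand, score 32) has 1 decamer, at bases 62 to 71. The region at Gm39671 (chr11:29808648-29808848, plus strand, score 31) has 1 decamer, at bases 96 to 105. The region at D730003K21Rik (chr9:116327181-116327322, plus strand, score 13) has 2 adjoining decamers, at bases 69 to 78 and 79 to 88. The shared peak at Cdkn1a (chr17:29090839-29090978, plus strand, score 385) has 2 decamers, at bases 68 to 77 and 90 to 99. The stretch tgacatgttc directly after the second misses the decamer only at its first base and stays in lower case. The capitals mark exact matches and do not show which pair p53 binds.
Gm40491 region: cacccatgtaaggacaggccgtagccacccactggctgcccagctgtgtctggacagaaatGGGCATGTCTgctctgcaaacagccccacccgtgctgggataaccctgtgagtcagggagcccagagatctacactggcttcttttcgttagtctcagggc
Gm39671 region: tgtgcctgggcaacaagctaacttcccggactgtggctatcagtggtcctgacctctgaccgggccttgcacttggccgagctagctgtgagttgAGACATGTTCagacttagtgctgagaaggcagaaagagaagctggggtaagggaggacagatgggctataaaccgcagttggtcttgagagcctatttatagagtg
D730003K21Rik region: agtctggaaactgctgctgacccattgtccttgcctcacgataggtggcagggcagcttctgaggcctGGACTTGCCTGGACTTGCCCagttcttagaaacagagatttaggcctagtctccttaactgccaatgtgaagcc
Cdkn1a shared peak: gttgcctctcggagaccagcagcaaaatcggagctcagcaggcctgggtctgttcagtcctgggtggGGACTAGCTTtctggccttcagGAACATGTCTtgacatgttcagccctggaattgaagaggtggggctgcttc
Among these 3 regions the complete element lay under a score of 13 and the single decamers under scores of 31 and 32. The 3 were chosen for their decamers and not all were printed whole, so no relation of score to decamer number can be read from them.

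The hyperoxia list rests on 7850393 tags with 0.76% of them in peaks, and the B6 room-air list of 4107 peaks on 7761931 tags with 0.64%. The KO hyperoxia and room-air lists hold 1320 and 1263 peaks from 5777111 and 5569531 tags, with 0.25% and 0.23% of tags in peaks. RNA libraries were estimated at 14.6 to 47.0 M (mega) reads. All 9 macrophage markers had means above 1 TPM, a transcript abundance scaled for length and library size, in all 6 RNA groups. Trem2 was at 908 to 962 TPM in B6 and 236 to 252 TPM in KO libraries, so reads of the targeted gene remain in the KO. B6 and KO or DBA libraries carry different date codes in their column names, so genotype and date code cannot be told apart. All KO and DBA columns carry the mark MF, while each B6 group has a column marked F and another marked MF. The part of this mark in differences between genotypes was not tested.

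Most hyperoxia-only distal regions were low peaks. Scores, the authors' tag counts in a region per 10 M tags, ran from 8 to 172 with a median of 13, and 2565 regions (85.6%) scored 20 or less. A score of 13 stands for 10 tags, with a Poisson 95% interval of 4.80 to 18.4 that covers counting error only. The room-air-only distal regions, 3506 in number, had the same median of 13. The 298 shared peaks had a median of 47 in the hyperoxia list and of 22 in the room-air list. At the top the lists differed: 135 hyperoxia-only distal regions scored 31 to 50 and 39 more than 50, against 21 and 6 room-air-only distal regions. Below that, 952 hyperoxia-only and 1112 room-air-only distal regions scored 10 or less, and 1281 and 1478 scored 11 to 15. The counts were 332 against 651 at scores over 15 and up to 20, and 258 against 238 at scores over 20 and up to 30. The lists pool their replicates, so none of these counts has a replicate error.

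**Figure D1:**
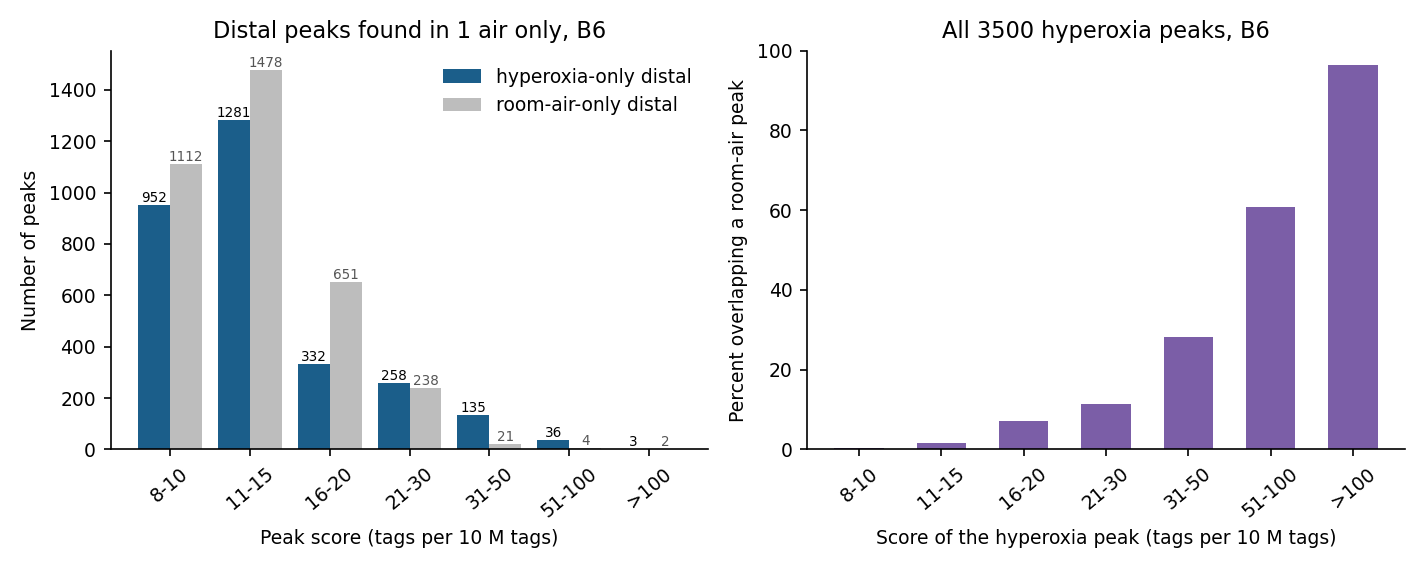
Left: number of hyperoxia-only distal regions and of room-air-only distal regions (bars, numbers above) by score in tags per 10 M tags; right: percent of all 3500 B6 hyperoxia peaks in each score range that overlap a room-air peak. Both lists pile up at scores of 15 or less, and the shared percentage climbs from 0.410% to 96.5%.

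The share of peaks with a room-air counterpart followed the score. Of all hyperoxia peaks, 0.410% at scores up to 10 overlapped a room-air peak, 11.3% at 21 to 30, 60.8% at 51 to 100 and 96.5% above 100. Of the 85 hyperoxia peaks above 100, 3 were hyperoxia-only distal regions and 82 were shared. Absence from the room-air list is a threshold call, and the room-air tag counts at these positions were not analysed here. The midpoints of 35 regions lay within 1 kb of a room-air peak's midpoint, the closest at 201 bp near Plxna2 (score 14) and 213 bp near P2ry6 (score 33). At the 1 kb rule itself, the regions just inside it were at Csnk1g1 (score 37, 1009 bp), Mcts1 (score 15, 1009 bp) and Exosc10 (score 12, 1011 bp), and the peaks just outside it at Plxna4os1 (score 12, 983 bp), Helb (score 14, 980 bp) and Mfap3l (score 13, 979 bp).

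The regions lay far from gene starts, as the rule asks. Their median distance to the nearest listed start was 27.0 kb (quartiles 11.3 and 69.6 kb), against 26.2 kb for the room-air-only distal regions, with 674 within 10 kb, 1341 at 10 to 50 kb, 470 at 50 to 100 kb and 512 farther away. Gene bodies held 1596 of them (53.3%), against 56.6% of the room-air-only distal regions, and 67.2% against 67.5% lay within 50 kb of a start. They were rarely clustered: 238 (7.94%) had another member within 10 kb, against 7.84% of room-air-only distal regions. A check against RefSeq starts, which did not cover the 71 regions on chromosome 18, placed 50 regions (1.67%) within 1 kb of a start that the expression table does not list. Of those starts, 14 belong to named genes. The highest region of all is one of them, 847 bp from a further Cdkn1a start.

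Within 50 kb of their nearest start, the regions pointed to 1811 genes, of which 1634 had 1 region, 151 had 2, 25 had 3 and 1, Aff1, had 4. Aff1 codes for a subunit of the super elongation complex and rose slightly in all 3 genotypes (log2 fold changes of 0.25 in B6, 0.25 in KO and 0.34 in DBA). Among genes with 3 regions, Bhlhe41, a repressor of the circadian clock, rose, Kif2c, a kinesin of mitotic spindles, fell, and Ctsd, the lysosomal protease cathepsin D, did not pass the test in B6 (log2 fold change 0.31, limma adjusted p = 0.0649). Scd2, a desaturase that makes monounsaturated fatty acids, had 3 regions as well and rose in B6 (log2 fold change 0.73, limma adjusted p = 0.0131).

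The highest region, with a score of 172 (135 tags, Poisson 95% interval 113 to 160), lay at chr17:29091726-29091926, 1.94 kb upstream of the listed start of Cdkn1a, which codes for the cell-cycle inhibitor p21. A second region at the same locus, chr17:29081940-29082140, scored 70 and lay 11.7 kb upstream of Cdkn1a and 2.91 kb upstream of Trp53cor1, the noncoding RNA known as lincRNA-p21. Both sit between or beside a pair of shared peaks: the shared peak at -2.83 kb scored 385 in hyperoxia and 149 in room air, and the one at -14.7 kb scored 363 and 131. The KO hyperoxia list held only the shared pair there, with scores of 87 and 62. B6 hyperoxia lungs held 3 of the 4 hyperoxia peaks, with 40 and 33 at the shared pair and 13 at the highest region. The locus thus carried hyperoxia-only regions next to elements that were already called in room air.

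At Mdm2, the gene of the ligase that removes p53, the region at chr10:117721512-117721712 scored 88 and lay 10.9 kb upstream. A shared peak 6.99 kb upstream scored 355 in hyperoxia, 122 in room air and 69 in KO hyperoxia, and a hyperoxia-only promoter peak 0.671 kb downstream of the start scored 78. B6 hyperoxia lungs held the shared peak (19) and the promoter peak (9) but not the distal region. Sesn2, which codes for a sestrin that restrains mTORC1 and supports antioxidant defence, had a region of score 68 at 5.18 kb upstream and a promoter peak of score 26, with the nearest shared peak 1589 kb away. At the targeted gene Trem2, the nearest region lay 700.8 kb away, and the hyperoxia-only peak at its start (score 24) is a promoter peak outside the set. At Trp53 the nearest region lay 141 kb away.

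**Figure D2:**
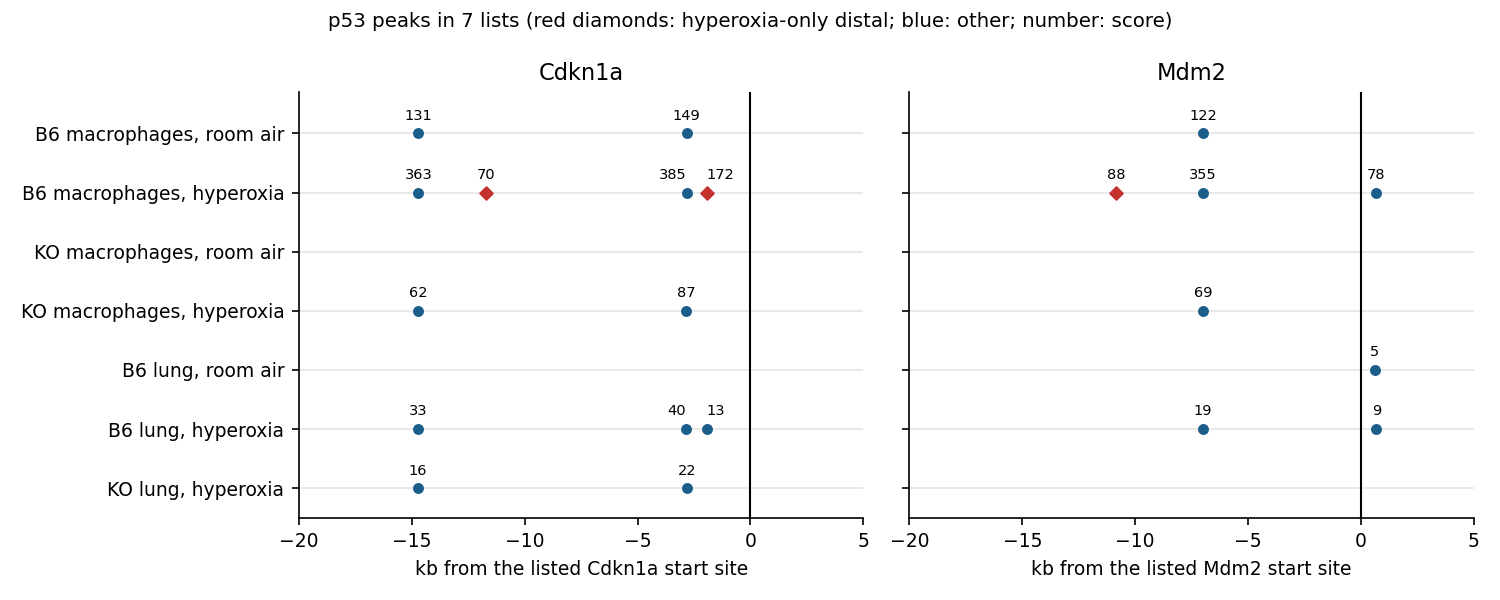
Peaks of 7 lists (rows) by distance in kb from the listed start of Cdkn1a (left) and Mdm2 (right); red diamonds are hyperoxia-only distal regions, blue circles all other peaks, and numbers are scores, which are scaled within each list. The regions of 172 and 70 at Cdkn1a and 88 at Mdm2 accompany peaks of 363, 385 and 355 that were also called in room air.

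The other 9 of the 12 highest regions lay near genes of varied function. Mrpl45, a mitochondrial ribosome protein, had a region of 107 at chr11:97310230-97310430, 5.39 kb upstream of its start, and Mbp one of 108 at 71.9 kb on chromosome 18. Myo5a, a cargo-carrying myosin, had one of 99 at chr9:75094976-75095176, and Mkl2, a coactivator of serum response factor, one of 93 at chr16:13223332-13223532. Regions of 84, 83 and 82 lay inside Dcun1d3, which acts in cullin neddylation (chr7:119861320-119861520), Lmna, which codes for the nuclear lamins A and C (chr3:88494919-88495119), and Trio, a guanine exchange factor for small GTPases (chr15:27993129-27993329). Tgif1, a repressor of TGF-beta signalling, had one of 73 at chr17:70834733-70834933, 16.4 kb from its start, and 1110002J07Rik one of 71 at 55.8 kb. The regions at Cdkn1a, Dcun1d3, Lmna and Trio were also called in B6 hyperoxia lungs, with lung scores of 13, 12, 7 and 12. None of the 12 was in a KO macrophage list.

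Whole lungs are an independent material in which the same antibody was used. B6 hyperoxia lungs had 235 peaks, of which 47 (20.0%) fell on hyperoxia-only distal regions, 70 (29.8%) on shared peaks and 1 (0.426%) on a room-air-only distal region. Seen from the macrophages, these are 1.57% of the 2997 regions, 23.5% of the 298 shared peaks and 0.0285% of the 3506 room-air-only distal regions. The regions also met 1 B6 room-air lung peak, 4 KO hyperoxia lung peaks and 1 DBA room-air lung peak, and none of the KO room-air or DBA hyperoxia lung lists. The overlap grew with the macrophage score: 6 of 1830 regions at 13 or less (0.328%), 10 of 735 at 14 to 20 (1.36%), 10 of 258 at 21 to 30 (3.88%), 11 of 135 at 31 to 50 (8.15%) and 10 of 39 above 50 (25.6%). The 47 had a median score of 27. Beyond the 4 named above, those above 50 lay near Wfikkn2, Ppp3ca, Lrrc28, Gpalpp1, Fam124b and Cd38, an NAD-consuming ectoenzyme of immune cells. These 6 were named after their values were seen.

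In KO macrophages the regions were almost never called. The KO hyperoxia list overlapped 14 of 2997 (0.467%, exact 95% binomial interval 0.256% to 0.783%, counting error only), against 101 of 298 shared peaks (33.9%) and 8 of the room-air-only distal regions. As a share of the KO list these are 1.06% and 7.65% for the hyperoxia-only distal and shared peaks. Even among regions above 50, 1 of 39 was in the KO list (2.56%), against 80 of 144 shared peaks above 50 (55.6%). These shared peaks were higher, with 82 above 100, against 3 of the regions. At scores over 50 and up to 100, 1 of 36 regions and 17 of 62 shared peaks were in the KO list. At scores over 30 and up to 50 these were 3 of 135 and 4 of 59. The KO list was built from fewer tags, with a lower share of them in peaks, and its shared scores at Cdkn1a and Mdm2 were below those of B6 hyperoxia and of B6 room air. The part of depth and ChIP efficiency in this overlap was not tested. The 14 had a median score of 23 and lay nearest to, among others, Wfikkn2 (score 66), Rreb1 (48), Kdm7a (41), Ltc4s (38), Mx2 (28), Pdgfc (23), Igf1 (19) and Rxra (14), and those at Wfikkn2 and Pdgfc were in the B6 hyperoxia lung list too. Neither list held the remaining 2938.

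**Figure D3:**
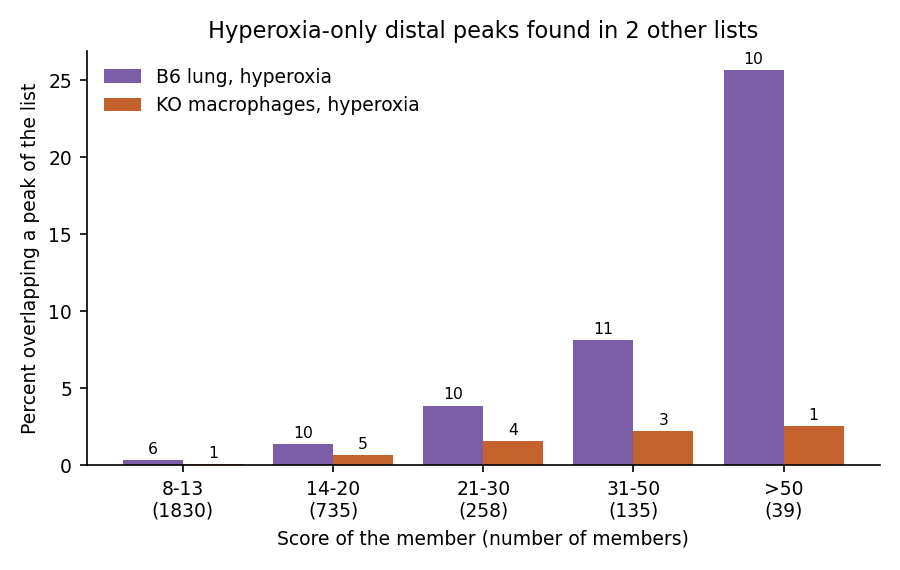
Percent of hyperoxia-only distal regions (bars, number of regions above each) that overlap a peak of B6 hyperoxia lungs or of KO hyperoxia macrophages, by score of the region, with the number of regions in each range in parentheses. The lung bars climb to 25.6% above a score of 50, and the KO bars stay at or below 2.56%.

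RNA was not used to choose the regions, so transcript levels of the nearest genes were tested in hyperoxia against room air. Of the 1811 nearest genes within 50 kb, 1331 passed the filter of at least 1 TPM in 2 libraries (73.5%, against 49.4% of all 24940 genes). The median room-air level of those tested was 13.8 TPM, against 11.4 TPM over all genes tested, 15.8 TPM next to room-air-only distal regions and 20.3 TPM next to shared peaks. In B6, 445 of the 1331 passed limma's test at a Benjamini-Hochberg adjusted p below 0.05 (33.4%, against 28.5% of all 12320 genes tested). Of these, 123 rose (9.24%, against 5.68%) and 322 fell (24.2%, against 22.8%), with a median log2 fold change of -0.13, as over all genes. Quantile normalization moved the median of all genes from -0.13 to 0.01 and turned the balance over all genes to 10.3% that rose and 10.6% that fell, and next to the regions to 182 of 339 calls that rose.

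Next to the 3506 room-air-only distal regions, 101 of 1545 genes tested rose (6.54%) and 430 fell (27.8%), and next to shared peaks 29 of 156 rose (18.6%). In KO, 369 of the 1331 passed (against 23.3% of all genes), with 168 that rose (12.6%, against 6.88%) and 201 that fell (15.1%, against 16.4%). In DBA, 306 passed (against 18.8%), with 123 that rose (9.24%, against 5.73%) and 183 that fell (13.7%, against 13%). Genes next to room-air-only distal regions rose in 8.74% of cases in KO and 6.93% in DBA. The share that rose was thus above the share over all genes next to both kinds of distal region in each genotype, and was higher next to hyperoxia-only ones, a difference that was not tested. The B6 count fell from 445 to 266 without the B6 room-air library marked MF. The KO count fell from 369 to between 159 and 201 without any 1 of the 4 KO libraries, and the DBA count from 306 to 131, 163 or 200 without a DBA library, except for 262 without DBA room-air replicate 1.

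The share of genes that rose followed the score of the region. In B6 it was 6.78% of 767 genes at 13 or less, 9.23% of 401 at 14 to 20, 13.2% of 144 at 21 to 30, 21.3% of 75 at 31 to 50 and 46.4% of 28 above 50, where 13 genes rose and 2 fell. KO gave 10.2%, 11.7%, 15.3%, 24.0% and 50.0%, and DBA 7.17%, 7.98%, 14.6%, 18.7% and 42.9%. The 3 genotypes have their own control libraries, while the regions were called in B6 only. Next to room-air-only distal regions above 30, 2 of 17 genes rose in B6, and only 1 gene was tested above 50. Distance made less difference: 9.47% rose with a region at 1 to 10 kb, 9.11% at 10 to 50 kb and 7.50% at 50 to 100 kb.

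Shared peaks stood near some of these genes. Without genes that have a shared peak within 50 kb, a setting added after the values were seen, 9 of 23 genes rose above a score of 50 (39.1%) and 20 of 84 above 30 (23.8%, against 27 of 100 with them). With KO and DBA the same setting left 10 and 8 of 23 above 50. For regions above 30 the count of 27 in B6 became 17 without the B6 room-air library marked MF and 11 with only the B6 libraries in the fit, and for those above 50 the 13 became 7 in that last fit.

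**Figure D4:**
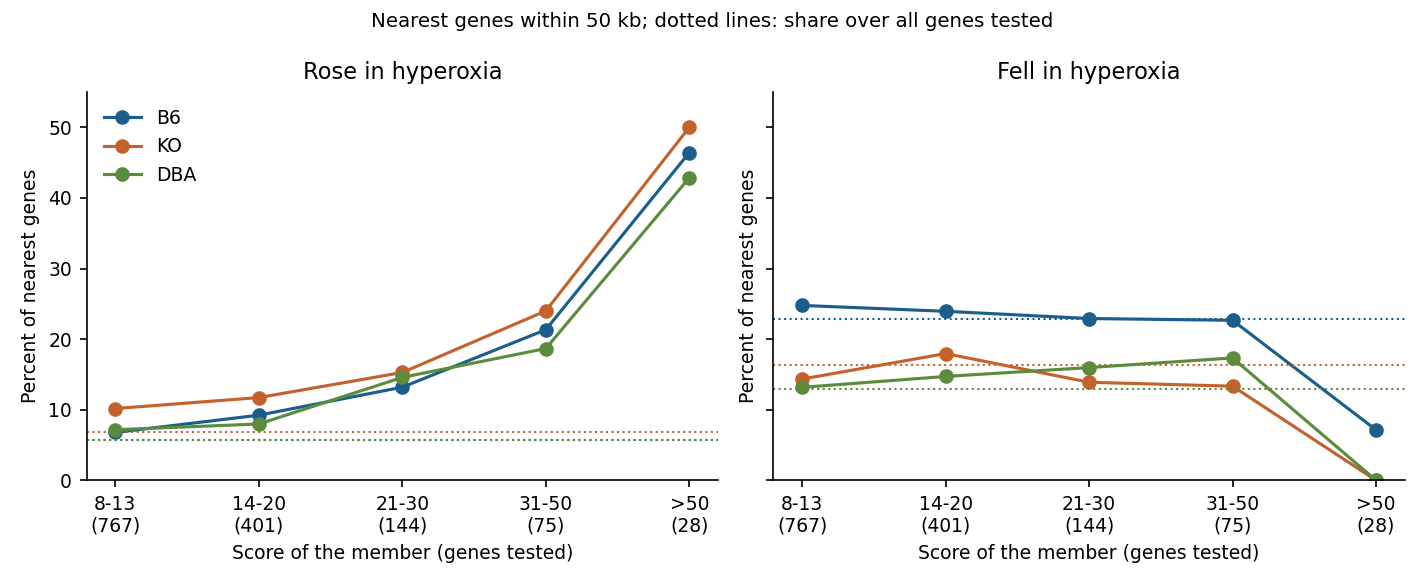
Percent of the genes nearest to hyperoxia-only distal regions that rose (left) or fell (right) in hyperoxia in B6, KO and DBA macrophages, by score of the region, with the number of genes tested in parentheses and dotted lines at the share over all genes tested. The rising share climbs to between 42.9% and 50.0% above a score of 50 in the 3 genotypes, and the falling share drops to at most 7.14% there.

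The 13 genes above a score of 50 that rose in B6 include cell-cycle, stress and survival genes. Cdkn1a was at 101 and 125 TPM in the 2 B6 room-air libraries and 257 and 343 TPM in the 2 hyperoxia libraries. It rose by a log2 fold change of 1.40 ± 0.13 (SE) (limma adjusted p = 0.000128), and the groups did not overlap. It also rose in KO, at 103 and 101 TPM in KO room air and 257 and 252 TPM in KO hyperoxia, and in DBA, at 119 and 126 TPM in DBA room air and 246 and 252 TPM in DBA hyperoxia. Of the 6 hyperoxic libraries, 5 thus lay between 246 and 257 TPM and 1 B6 library at 343 TPM.

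Mdm2 was at 50.2 and 52.8 TPM in the 2 B6 room-air libraries and 106 and 120.3 TPM in the 2 hyperoxia libraries, a log2 fold change of 1.12 ± 0.08 (SE) (limma adjusted p = 3.44e-05). KO cells gave 58.5 and 54.7 TPM in KO room air and 129 and 124 TPM in KO hyperoxia, and DBA cells 57.9 and 65.2 TPM in DBA room air and 137 and 145 TPM in DBA hyperoxia. All hyperoxia libraries lay above all room-air libraries. Trp53cor1 was low throughout, at 0.42 and 0.528 TPM in the 2 B6 room-air libraries and 1.56 and 2.61 TPM in the 2 hyperoxia libraries (log2 fold change 1.05 ± 0.20 (SE), limma adjusted p = 0.00457), and its B6 groups did not overlap, but the call was lost with only the B6 libraries in the fit.

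Sesn2 was at 7.07 and 7.84 TPM in the 2 B6 room-air libraries and 15.3 and 18.9 TPM in the 2 hyperoxia libraries, a log2 fold change of 1.09 ± 0.10 (SE) (limma adjusted p = 0.000128), with 0.80 in KO and 0.72 in DBA. Bhlhe41, with regions of 64 and 43 at 18.3 and 17.9 kb, was at 33.9 and 29.2 TPM in the 2 B6 room-air libraries and 73.9 and 60.3 TPM in the 2 hyperoxia libraries (log2 fold change 1.06 ± 0.11 (SE), limma adjusted p = 0.000222). Neither gene has a shared peak within 50 kb, and both had groups that did not overlap in each genotype.

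Lmna was at 116 and 128 TPM in the 2 B6 room-air libraries and 149 and 165 TPM in the 2 hyperoxia libraries (log2 fold change 0.36 ± 0.07 (SE), limma adjusted p = 0.00425), Trio went from 12.4 and 12.5 to 15.2 and 16 TPM (0.30, limma adjusted p = 0.00701) and Mkl2 from 15.3 and 13.5 to 18 and 18.1 TPM (0.31, limma adjusted p = 0.00938). Dcun1d3 went from 4.44 and 3.46 to 6.03 and 5.67 TPM (0.48, limma adjusted p = 0.0227). Each of these 4 had B6 groups that did not overlap, and each lost its call with only the B6 libraries in the fit. Mkl2 also lost it without the B6 room-air library marked MF, and Dcun1d3 without that library or either B6 hyperoxia library. Lmna, Trio and Mkl2 rose in KO and DBA too, and Dcun1d3 in DBA but not in KO (limma adjusted p = 0.157).

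Another 4 rises were named after their values were seen. Bcl2l1, which codes for the survival protein Bcl-xL, went from 87.8 and 87.7 to 139 and 145 TPM (log2 fold change 0.69, limma adjusted p = 3.44e-05) next to a region of 52. Ier5, an immediate early gene, went from 58.9 and 63.3 to 82.2 and 93 TPM (0.51, limma adjusted p = 0.00139) next to one of 62. A shared peak lay 7.90 kb from that region at Ier5. Osbpl8, a lipid transporter, went from 164 and 177 to 221 and 230.2 TPM (0.40, limma adjusted p = 0.012) and Cndp2, a dipeptidase, from 279 and 283 to 312 and 333 TPM (0.20, limma adjusted p = 0.014). The 2 falls, also named afterwards, were Slc5a3, a myo-inositol transporter, from 9.71 and 11.5 to 4.15 and 4.65 TPM, and Gpalpp1, from 14.5 and 15.4 to 11.7 and 11.8 TPM. A high region was no sure sign of a change: Mrpl45 (log2 fold change 0.08), Myo5a (0.23), Tgif1 (-0.07) and Mbp (-0.15) did not pass the test in B6.

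The p53 target list showed how the regions met known targets. Of 47 targets tested, 12 (25.5%) had a region within 50 kb, against 22.0% of all genes tested, and 5 (10.6%) had one scoring over 30, against 1.93%. Shared peaks lay near 16 targets (34.0%, against 2.69%), and room-air-only distal regions near 18 (38.3%, against 27.1%). Among the 12 targets with a region, 7 rose and 2 fell in B6 (against 5.68% and 22.8% of all genes), with a median log2 fold change of 0.74. In KO 7 rose and 3 fell, and in DBA 7 rose and 2 fell. Of the 35 targets without a region 9 rose and 4 fell in B6, with a median of 0.09. Of the 12, 5 had no shared peak within 50 kb (Sesn1, Sesn2, Pmaip1, Plk2 and Ak1), and of these 2 rose and 1 fell in B6, with a median of 0.38. The other 5 that rose, Cdkn1a, Mdm2, Bbc3, Phlda3 and Zmat3, have a shared peak within 50 kb. Of the 5 with a region and no shared peak, Sesn1, Plk2 and Ak1 had a room-air-only distal region within 50 kb. The region at Ak1, which scored 12, lay 234 bp from a further RefSeq start of Ak1.

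Phlda3, an inhibitor of Akt signalling, was at 6.93 and 9.19 TPM in the 2 B6 room-air libraries and 31.4 and 31.2 TPM in the 2 hyperoxia libraries and had the largest log2 fold change of the 12, 1.85 ± 0.11 (SE) (limma adjusted p = 2.14e-05), with regions from 4.99 kb and a shared peak at its start. Plk2, a kinase of the polo family, was at 136 and 113 TPM in the 2 B6 room-air libraries and 222 and 206 TPM in the 2 hyperoxia libraries (0.78 ± 0.08 (SE), limma adjusted p = 0.000261), with a region of 23 at 2.16 kb. No shared peak lay within 50 kb of Plk2, but the midpoint of a room-air-only peak lay 0.257 kb from that of this region. Zmat3, an RNA-binding p53 target, was at 9.34 and 10.6 TPM in the 2 B6 room-air libraries and 19.1 and 22.6 TPM in the 2 hyperoxia libraries (0.99 ± 0.10 (SE), limma adjusted p = 0.000174). All 3 rose in KO and DBA, and in each genotype their groups did not overlap.

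Of the cell-death genes, Bbc3, which codes for the BH3 protein Puma, was at 13.4 and 14.7 TPM in the 2 B6 room-air libraries and 24.1 and 22.7 TPM in the 2 hyperoxia libraries (0.70 ± 0.11 (SE), limma adjusted p = 0.00172) and Pmaip1, the gene of the BH3 protein Noxa, at 8.06 and 11.7 TPM in the 2 B6 room-air libraries and 8.8 and 11.4 TPM in the 2 hyperoxia libraries (0.04, limma adjusted p = 0.889). Bbc3 rose in KO and did not pass in DBA (limma adjusted p = 0.0609), and the Pmaip1 groups overlapped in B6. Trp53inp1, a stress gene that promotes p53 activity, was at 13 and 13.4 TPM in the 2 B6 room-air libraries and 12.6 and 12.8 TPM in the 2 hyperoxia libraries, did not pass in B6 (limma adjusted p = 0.758) and rose in DBA (log2 fold change 0.46, limma adjusted p = 0.0127).

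A pair of targets went the other way. Sesn1, the sestrin paralog of Sesn2, was at 95 and 105 TPM in the 2 B6 room-air libraries and 44 and 37.8 TPM in the 2 hyperoxia libraries (-1.27 ± 0.08 (SE), limma adjusted p = 2.72e-05), and Btg2, an antiproliferative gene, at 25.2 and 24 TPM in the 2 B6 room-air libraries and 13.5 and 15.3 TPM in the 2 hyperoxia libraries (-0.74 ± 0.10 (SE), limma adjusted p = 0.000796). Both fell in KO (-1.14 and -0.82) and in DBA (-1.12 and -0.76). Trp53 itself, with no region within 50 kb, fell from 48.9 ± 5.55 (SD, n = 2) to 31.5 ± 4.99 TPM (SD, n = 2), a log2 fold change of -0.62 (limma adjusted p = 0.00391), a call lost with only the B6 libraries in the fit.

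**Figure D5:**
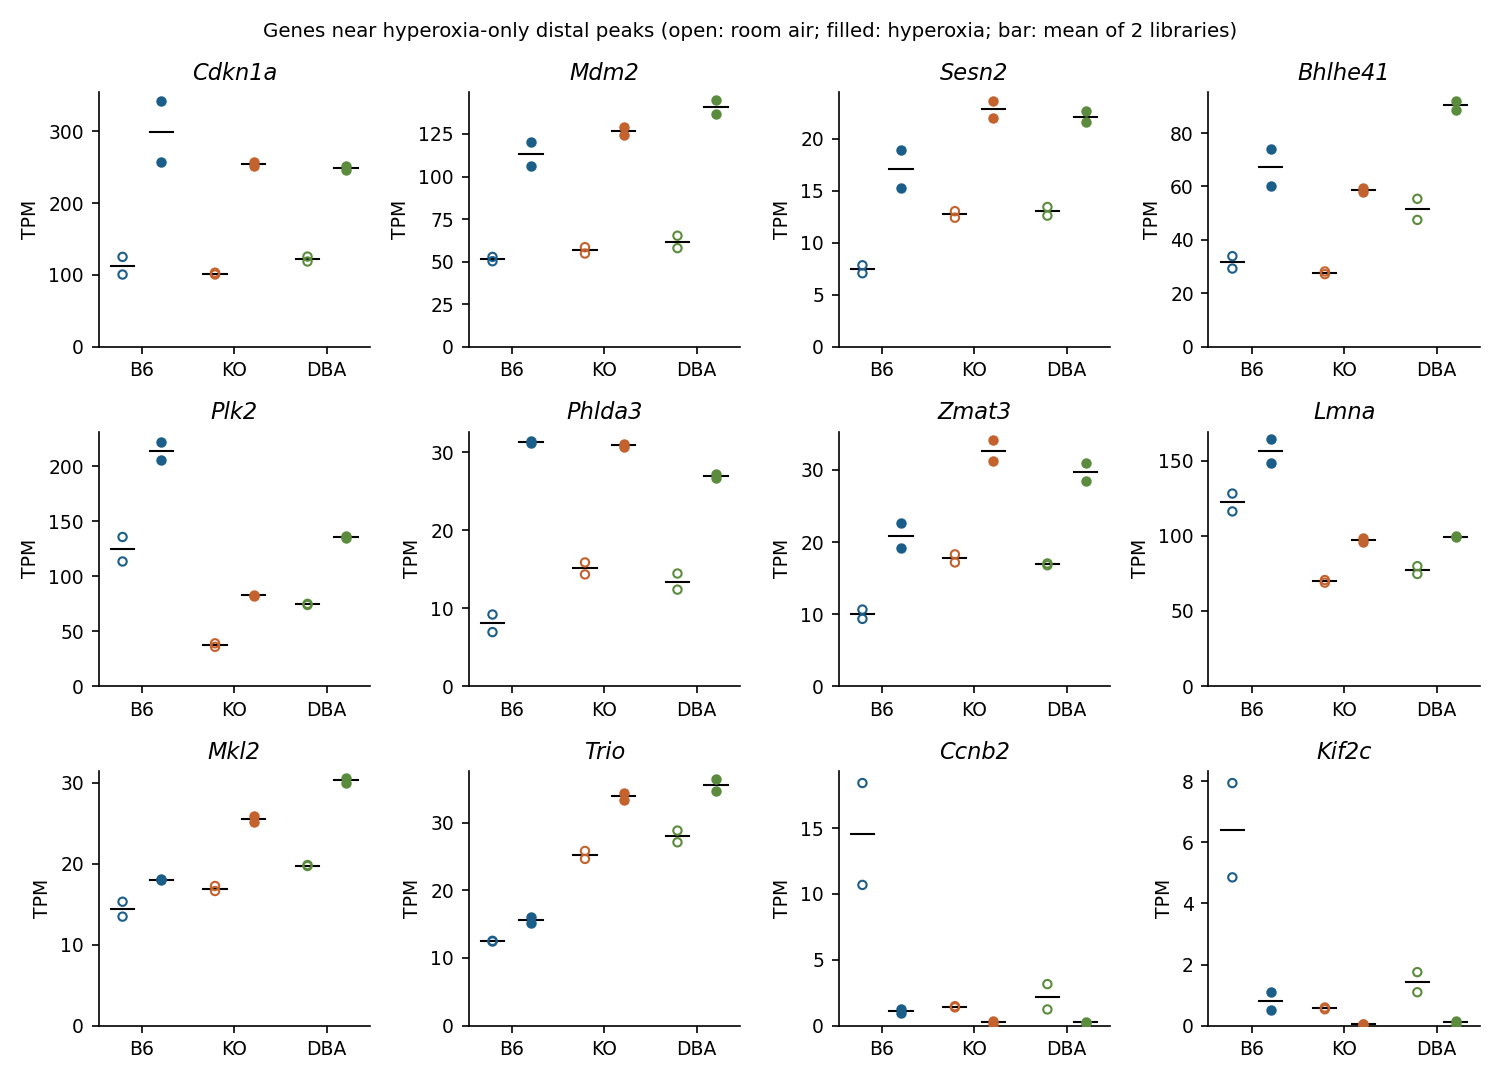
TPM in every library for 12 genes near hyperoxia-only distal regions in B6, KO and DBA macrophages; open points are room air, filled points hyperoxia, and bars the mean of the 2 libraries. Cdkn1a, Mdm2, Sesn2, Bhlhe41, Plk2, Phlda3 and Zmat3 are higher in hyperoxia in all 3 genotypes, Lmna, Mkl2 and Trio more slightly, and Ccnb2 and Kif2c are lower.

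Among the largest rises next to any region were genes outside the target list. Itgb3, the integrin beta 3 chain, was at 3.88 and 4.05 TPM in the 2 B6 room-air libraries and 14.3 and 11.3 TPM in the 2 hyperoxia libraries (1.47 ± 0.11 (SE), limma adjusted p = 3.44e-05) with a region of 10 at 13.6 kb, and rose in KO (1.26) and DBA (1.21). P4ha2, a collagen prolyl hydroxylase, was at 1.51 and 1.61 TPM in the 2 B6 room-air libraries and 4.88 and 7.83 TPM in the 2 hyperoxia libraries (1.49 ± 0.17 (SE), limma adjusted p = 0.000397), and in DBA it did not pass (log2 fold change 0.01). Dio2, the deiodinase that activates thyroid hormone, was at 21 and 10.8 TPM in the 2 B6 room-air libraries and 53.2 and 24.1 TPM in the 2 hyperoxia libraries (1.19 ± 0.34 (SE), limma adjusted p = 0.0285). The lower hyperoxia library of Dio2 exceeded the higher room-air library by little in B6, and its call was lost with no filter on low values, with only the B6 libraries in the fit, and without either the B6 hyperoxia library marked F or the B6 room-air library marked MF.

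Rilpl1, a regulator of lysosome and cilium traffic, went from 5.77 and 4.06 to 16.7 and 10.1 TPM (1.26, limma adjusted p = 0.00198) and Rgcc, a regulator of the cell cycle, from 1.45 and 2.48 to 4.97 and 6.96 TPM (1.24, limma adjusted p = 0.00394). In KO and DBA neither passed the test (log2 fold changes of 0.59 and 0.40 for Rilpl1, and 0.60 and 0.23 for Rgcc). Whether these responses differ from B6 was tested for KO, where the differences of -0.66 ± 0.29 (SE) and -0.64 ± 0.33 (SE) did not pass (limma adjusted p = 0.298 and 0.379). All KO libraries were below 1 TPM for Rgcc, where log2(TPM + 1) shrinks fold changes. As a ratio of means, Rgcc rose no less in KO (0.167 to 0.773 TPM) than in B6 (1.965 to 5.965 TPM), so its difference rests on that scale. With only the B6 libraries in the fit Rilpl1 lost its B6 call. The regions at these genes scored 14 and 13.

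Among nearest genes, several of the largest falls named were of genes used in cell division. Ccnb2, which codes for cyclin B2, was at 10.7 and 18.4 TPM in the 2 B6 room-air libraries and 1.27 and 0.978 TPM in the 2 hyperoxia libraries (-2.83 ± 0.29 (SE), limma adjusted p = 0.000246). Kif2c was at 4.85 and 7.93 TPM in the 2 B6 room-air libraries and 0.522 and 1.09 TPM in the 2 hyperoxia libraries (-2.02 ± 0.23 (SE), limma adjusted p = 0.000356), with 3 regions from 7.71 kb. Lmnb1, the gene of lamin B1, was at 9.42 and 17.4 TPM in the 2 B6 room-air libraries and 1.68 and 3.29 TPM in the 2 hyperoxia libraries (-2.03 ± 0.26 (SE), limma adjusted p = 0.000677). In all 3 the hyperoxia libraries lay well below the room-air libraries in B6.

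Mitotic checkpoint and replication genes followed: Bub1b (log2 fold change -1.69), Mad2l1 (-1.65), Mcm6 (-1.42) and the CDK inhibitor gene Cdkn2c (-1.34). Spn, the leukocyte sialophorin CD43 (-1.39), and Fnbp1l, a membrane-bending protein (-1.17), fell as well, and limma adjusted p for these 6 ran from 0.00017 to 0.00166. Of 30 cell cycle genes, 7 had a region within 50 kb (23.3%, against 22.0% of all genes). Of the 7, 5 fell (against 22.8% of all genes) and 1, the sliding clamp gene Pcna (from 248 and 248 to 312 and 369 TPM), rose. Among all 30, 28 fell and 1 rose. The Pcna call was lost with only the B6 libraries in the fit. The regions at these falling genes were low, at 10 to 19, except for 36 at Kif2c. Room-air-only distal regions lay nearer than these to Bub1b (6.37 kb), Cdkn2c (3.65 kb), Fnbp1l (5.77 kb) and Kif2c (7.01 kb). The same held for the falling cell cycle genes Rrm1 (2.05 kb) and Cdc6 (25.5 kb). Room-air-only distal regions lay farther away at Ccnb2, Lmnb1, Mad2l1, Mcm6, Spn and Tyms. KO room-air levels of Ccnb2 (1.39 and 1.48 TPM in KO room air and 0.153 and 0.366 TPM in KO hyperoxia) and Kif2c (0.537 and 0.594 TPM in KO room air and 0.042 and 0.053 TPM in KO hyperoxia) lay below those of B6 room air.

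Macrophage identity genes had a region within 50 kb in 11 of 29 cases (37.9%, against 22.0% of all genes). Room-air-only distal regions lay within 50 kb of 12 of the 29, against 27.1% of all genes. Of the 11, 5 fell in B6 and 6 did not pass limma's test. Of all 29, 2 rose and 13 fell (against 5.68% and 22.8% of all genes). The 5 were Lyz2, the gene of lysozyme (-0.49), the mannose receptor gene Mrc1 (-0.79), the Fc receptor gene Fcgr1 (-0.73), the integrin gene Itgam (-0.34) and the kinase gene Lyn (-0.43). With only the B6 libraries in the fit all but Lyn lost the call. With no filter on low values Lyz2 lost it as well, and Itgam lost it without the B6 hyperoxia library marked MF. The summed TPM of the 9 macrophage markers was 26690 to 26846 in B6 room air and 20654 to 20899 in B6 hyperoxia, with none of the 9 at 0. In bulk RNA fewer cells of a type and less RNA per cell cannot be told apart.

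Of 27 antioxidant genes of the NRF2 list, 22 rose in B6 (against 5.68% of all genes). Regions lay within 50 kb of 5 of the 27 (18.5%, against 22.0% of all genes), and 3 of these rose. Slc7a11, the cystine transporter gene, was at 1.08 and 0.602 TPM in the 2 B6 room-air libraries and 4.5 and 3.67 TPM in the 2 hyperoxia libraries (1.47 ± 0.14 (SE), limma adjusted p = 0.000161), the autophagy receptor gene Sqstm1 went from 323 and 379 to 563 and 659 TPM (0.80) and the ferritin heavy chain gene Fth1 from 24355 and 22479.8 to 42303 and 40981 TPM (0.83). Fth1 lost its call with no filter on low values and under quantile normalization, where its value became 0. Of 26 lipid and lysosome genes 9 had a region within 50 kb (34.6%, against 22.0% of all genes), and 9 had a room-air-only distal one. Of the 9 with a region, Lgals3, the galectin-3 gene, rose (0.44). Its call was lost with only the B6 libraries in the fit, with no filter on low values, under quantile normalization, without the B6 hyperoxia library marked F and without the B6 room-air library marked MF.

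Inflammatory genes had regions within 50 kb in 2 of 21 cases (9.52%, against 22.0% of all genes), Ptgs2 and Nlrp3. Neither passed limma's test in B6 (log2 fold changes 0.20 and -0.27, adjusted p = 0.427 and 0.311). The neutrophil genes S100a8 and S100a9, which have regions of 9 at 45.9 and 19.2 kb, fell in B6, S100a9 from 19.5 and 15 to 1.98 and 1 TPM (log2 fold change -2.89, limma adjusted p = 0.000295). S100a8 (log2 fold change -1.53) lost its call with no filter on low values, with only the B6 libraries in the fit, under quantile normalization, and without the B6 hyperoxia library marked MF or the B6 room-air library marked F. The summed TPM of the 10 neutrophil markers went from 25.6 to 46.0 in B6 room air to 3.25 to 7.84 in hyperoxia, with 3 and 2 of the 10 above a mean of 1 TPM and Ly6g and Retnlg at 0 in both. The part of neutrophil content in these falls was not tested.

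The oxygen response of KO was compared with that of B6 by the difference of the 2 log2 fold changes. Of the 1331 genes, 15 passed by limma (against 1.45% of all 12320 genes), 9 with a higher response in KO (against 0.657%) and 6 with a lower one (against 0.795%). That is 1.13% of the nearest genes, below the share over all genes, and at an unadjusted p below 0.05 it was 220 (16.5%, against 15.9%). The count was 0 with only these 2 genotypes in the fit, 2 with a pseudocount of 0.1, 5, 6 or 26 without 1 of the B6 libraries, and 0 or 5 without 1 of the KO libraries. Those at 0 were KO hyperoxia replicate 1, KO hyperoxia replicate 2 and KO room-air replicate 1. The 26 came without the B6 room-air library marked F, and 5 without KO room-air replicate 2, without the B6 hyperoxia library marked F or without the B6 room-air library marked MF.

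The largest difference among protein-coding genes of higher response was Slc7a11, with 0.936 and 0.816 TPM in KO room air and 12.8 and 13 TPM in KO hyperoxia beside 1.08 and 0.602 TPM in the 2 B6 room-air libraries and 4.5 and 3.67 TPM in the 2 hyperoxia libraries, a difference of 1.42 ± 0.20 (SE) (limma adjusted p = 0.018). Dusp4, a MAP kinase phosphatase gene, rose in both, from 29.3 and 32.8 to 53 and 66.4 TPM in B6 and with 3.89 and 4.11 TPM in KO room air and 18.2 and 16.4 TPM in KO hyperoxia (difference 0.96 ± 0.16 (SE), limma adjusted p = 0.0292). Slc5a3, whose region scored 65, fell in B6 and was at 3.4 and 3.54 TPM in KO room air and 3.56 and 4.06 TPM in KO hyperoxia (difference 1.21 ± 0.16 (SE), limma adjusted p = 0.0166). The primary transcript Mir29c had a difference of 1.90 ± 0.25 (SE) (limma adjusted p = 0.0152) with 3.96 and 5.98 TPM in the 2 B6 room-air libraries and 1.26 and 1.5 TPM in the 2 hyperoxia libraries and 4.95 and 4.55 TPM in KO room air and 8.09 and 7.29 TPM in KO hyperoxia.

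Among the lower responses, Ak1, an adenylate kinase gene, and Phlda3 belong to the p53 target list. Phlda3 was at 15.9 and 14.3 TPM in KO room air and 31 and 30.7 TPM in KO hyperoxia, a hyperoxia level close to that of B6 from a higher room-air level (difference -0.86 ± 0.16 (SE), limma adjusted p = 0.0395). Ak1 was at 1.98 and 2.44 TPM in the 2 B6 room-air libraries and 2.73 and 3.63 TPM in the 2 hyperoxia libraries and 11 and 8.56 TPM in KO room air and 3.55 and 3.86 TPM in KO hyperoxia (difference -1.57 ± 0.26 (SE), limma adjusted p = 0.0274). Sparc, a matrix protein gene, went from 0.236 and 0.066 to 0.112 and 0.049 TPM in B6 and was at 36.9 and 32.5 TPM in KO room air and 10.2 and 12.5 TPM in KO hyperoxia (difference -1.45 ± 0.21 (SE), limma adjusted p = 0.0203). Fscn1, an actin bundler gene, went from 0.194 and 0.587 to 0.028 and 0.098 TPM in B6 and was at 14.1 and 12 TPM in KO room air and 2.93 and 2.98 TPM in KO hyperoxia (difference -1.45 ± 0.28 (SE), limma adjusted p = 0.04). All B6 libraries were below 1 TPM for Sparc and Fscn1, where log2(TPM + 1) shrinks fold changes. As a ratio of means, Fscn1 fell no less in B6 (0.3905 to 0.063 TPM) than in KO (13.1 to 2.95 TPM), so its difference rests on that scale. Tpm1, a tropomyosin gene, was at 62.6 and 61.8 TPM in KO room air and 41.3 and 42.7 TPM in KO hyperoxia (difference -0.61 ± 0.08 (SE), limma adjusted p = 0.015). The summed TPM of 8 fibroblast markers was 0.62 to 0.94 and 0.22 to 0.24 in B6 room air and hyperoxia, 90.0 to 113 and 25.4 to 33.0 in KO, and 79.9 to 93.3 and 31.1 to 35.1 in DBA. Means above 1 TPM were found for 0 of the 8 in B6, for 6 and 3 in KO and for 6 and 4 in DBA, with Col1a1, Col3a1 and Lum at 0 in B6 hyperoxia and Lum at 0 in KO hyperoxia. In DBA, whose libraries share the date code of KO, the log2 fold changes were 0.96 for Phlda3 (beside 0.99 in KO), -0.41 for Ak1 (-1.19), -1.08 for Sparc (-1.54), -1.39 for Fscn1 (-1.83) and -0.46 for Tpm1 (-0.56). Of these 5, Ak1 did not pass in DBA (limma adjusted p = 0.152). For the higher responses DBA gave 1.74 for Slc7a11 (2.89 in KO), 1.41 for Dusp4 (1.87), -0.01 for Slc5a3 (0.10) and 0.89 for Mir29c (0.60). The difference between DBA and B6 was not tested. The part of fibroblast content in the differences of Sparc, Fscn1 and Tpm1 was not tested.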

How the data were processed

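Peak lists of p53 ChIP-seq were used as deposited. Per the file headers, HOMER called 200-base peaks at a false discovery rate of 0.001 and at least 4-fold over input, on combined replicates, and the score is the tag count per 10 M (mega) tags. Reads were aligned to mm10 with Bowtie2 (ChIP) and STAR (RNA), per the submitters' processing notes; their versions are not stated in the sources used here. Expression values are TPM, which the authors computed with HOMER and deposited, 1 transcript a gene. Coordinates are mm10, counted from 1.

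Peaks sharing at least 1 base were taken as overlapping. TPM were tested as log2(TPM + 1), the scale of all fold changes, with limma 3.58.1 in R 4.3.3, all 6 macrophage groups in the fit, a variance trend and Benjamini-Hochberg adjustment over the 12320 genes with at least 1 TPM in 2 libraries. The tests were checked on simulated data. TPM times length gave whole multiples in 99.9% to 100% of values (tolerance 0.15), from which reads were estimated. TPM over the listed genes sum to 529220 to 555113. Sequences are RefSeq's, and were not read elsewhere because no genome of the build was used here.

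The members and gene lists were chosen with earlier results of these data known. Named were the 12 highest regions; the 10 largest called rises and falls in B6 among nearest genes within 50 kb, with groups that do not overlap, a higher-group mean of 5 TPM or more and no predicted genes; every list gene with a region within 50 kb; and Trp53, Cdkn1a, Mdm2 and Trem2. Alternatives were another pseudocount, no filter, quantile normalization, fewer groups, a larger fold, left-out libraries, a replicate block, other distances and overlaps, and higher scores. A result of the lipid and lysosome list is not reported here.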

Additional observations from a re-analysis of the deposited data

Results flagged for a closer look

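For 4 named genes near hyperoxia-only distal regions, the test of the difference between the KO and B6 oxygen responses passed (limma, Benjamini-Hochberg adjusted over 12320 genes, 2 libraries a group). The difference in log2 fold change was 1.42 ± 0.20 (SE) for Slc7a11 (adjusted p = 0.018), which rose in both genotypes. It was 1.26 ± 0.23 (SE) for Bub1b (adjusted p = 0.0344), which fell in B6 from a mean of 9.16 to 2.13 TPM and went from 2.00 to 1.22 TPM in KO. It was -1.57 ± 0.26 (SE) for Ak1 (adjusted p = 0.0274), which fell in KO from a mean of 9.80 to 3.71 TPM. It was -0.86 ± 0.16 (SE) for Phlda3 (adjusted p = 0.0395), which rose in both. Genotype and date code cannot be told apart in these values, and the mark F occurs only among the B6 libraries.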

How the results depend on the processing

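In B6, 445 called genes near the regions became 131 with only the B6 groups in the fit, 45 with an absolute log2 fold change of at least 1, 154 with starts within 10 kb and 220 with the higher-scoring 50% of the regions, and 266 to 447 without 1 library. In the same order, the 369 of KO became 606, 34, 123 and 195, and 159 to 201 without 1 library. The 306 of DBA became 29, 93 and 166 under the last 3 of these settings, and 131 to 262 without 1 library. The 15 genes with a KO minus B6 difference became 0, 7, 7 and 6 in that order, 2 with a pseudocount of 0.1, and 0 to 26 without 1 library. With a replicate block they became 67; B6 libraries were matched by the marks F and MF, since their columns share a number, and KO and DBA libraries by number. Matched libraries correlated in their deviations at 0.38 in B6, 0.08 in DBA and -0.05 in KO, and the labels name no shared source, so they were not taken as pairs. In B6 the block added calls for Abcg1, Cebpa, Ctsd, G6pdx, Gpnmb, Mpeg1, Myo5a, Nlrp3 and Psap, at the same fold changes. The number of regions went from 2997 to 1167 with the higher-scoring 50% of hyperoxia peaks, and their overlap with KO hyperoxia from 0.467% to 1.11%. Settings added after the values were seen, without genes near shared peaks and without regions at a further RefSeq start, moved no count by over 1.5 times: B6 gave 407 and 437. Of 46 named genes called in B6, 29 kept the call with another pseudocount, no filter, quantile normalization, fewer groups, the block and each B6 library left out, and 17 lost it under at least 1 of these, most often with only the B6 groups in the fit; no direction reversed. Depth limits the regions: at a median of 10 tags, a region just above the caller's threshold in hyperoxia and one just below it in room air cannot be told apart.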
